A study of Mus musculus with 12 samples.

Results

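Changes with an agonist of CD40 that appear both with and without a tumor were measured in type 1 conventional dendritic cells (cDC1) of mouse inguinal lymph nodes. All 12 RNA-seq libraries of the series were used: the 6 from agonist-treated mice were set against the 6 from mice without agonist, in a model that also held the presence of a tumor. The 4 groups of 3 libraries are NoTumor-CD40 (agonist, no tumor), Tumor-CD40 (agonist, KPC tumor under the skin), NoTumor-NoCD40 (neither) and Tumor-NoCD40 (tumor, no agonist). KPC is the name of a mouse pancreatic cancer model, and the labels name no other genotype, strain, agent, dose, treatment time, age or sort gate. Of 18095 genes tested, 410 passed the threshold for the agonist effect. Of these, 298 are called alike here, because in each tumor state on its own all 3 agonist libraries lay on the same side of all 3 libraries without agonist.

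CD40 is a receptor of the tumor necrosis factor receptor family on dendritic cells and B cells. Its ligand is carried by activated helper T cells, and agonist antibodies stand in for that signal. Inside the cell TRAF adaptors pass it to the NF-kB transcription factors, and the dendritic cell then raises ligands and cytokines that instruct T cells. cDC1 are the dendritic cells that take up material of dead cells and present it to CD8 T cells. Interferons are antiviral cytokines that act through factors of the STAT and IRF families on a wide set of genes, many of which cDC1 also express.

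The 12 libraries held between 22855143 and 27163393 expected counts, and levels are given as normalized CPM, the counts of a gene relative to the scaled library total. Whether replicate libraries are separate animals is not stated, so p-values reflect only the spread between these samples, which may be technical. The label cDC1 was checked against its markers: Xcr1 stood between 49.5 and 780 CPM, Clec9a between 33.2 and 357 CPM, Irf8 between 783 and 2640 CPM and Batf3 between 85.2 and 160 CPM over the 12 libraries, so none of these 4 was absent from any library. Some libraries stood apart. NoTumor-CD40 library 3 and Tumor-NoCD40 library 3 had the lowest Xcr1 (49.5 and 73.1 CPM) and the highest summed level of 32 genes of mature, migratory dendritic cells (51690 and 43230 CPM, against 11200 to 40550 CPM in the other 10 libraries). Tumor-CD40 library 3 had the highest summed level of 16 B cell markers (3439 CPM) and Tumor-NoCD40 library 3 that of 14 T cell markers (1191 CPM). In bulk RNA, fewer cells of a type and less RNA per cell cannot be told apart.

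The agonist effect common to both tumor states was mostly a rise. Many genes of the interferon response, a few ligands that act on T cells (among them Cd80 and Cd274), the vitamin D receptor and the metabolic enzyme Upp1 were higher in agonist libraries of both states. In quasi-likelihood tests (edgeR, Benjamini-Hochberg adjustment over all genes), 351 genes were higher (1.94% of those tested) and 59 lower (0.326%) at an adjusted p under 0.05. The log2 fold change of the agonist (agonist over none, with tumor as covariate) had a median of 1.54 among the genes called higher and of -1.47 among those called lower, beside -0.0268 over all genes tested. An unadjusted p under 0.05 was reached by 3120 genes. The highest adjusted p among the genes called was 0.0498 and the lowest among the others 0.0501.

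The genes alike in both states were 253 higher (1.4% of genes tested) and 45 lower (0.249%). Without asking for a call, the libraries did not overlap in either state for 379 genes in the higher direction (2.09%) and 171 in the lower (0.945%). All 351 genes called higher had a log2 fold change above 0 in both states, and all 59 called lower had one below 0 in both. The call uses the same 12 libraries, so this agreement in sign is partly set by the selection and is no separate support. A stricter reading takes all 6 agonist libraries together: they lay above all 6 without agonist in 240 genes tested (1.33%), 196 of them called higher, and below them in 72 (0.398%), 27 of them called lower. The tumor term of the same model called 25 genes, 10 of which were among the 410.

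**Figure D1:**
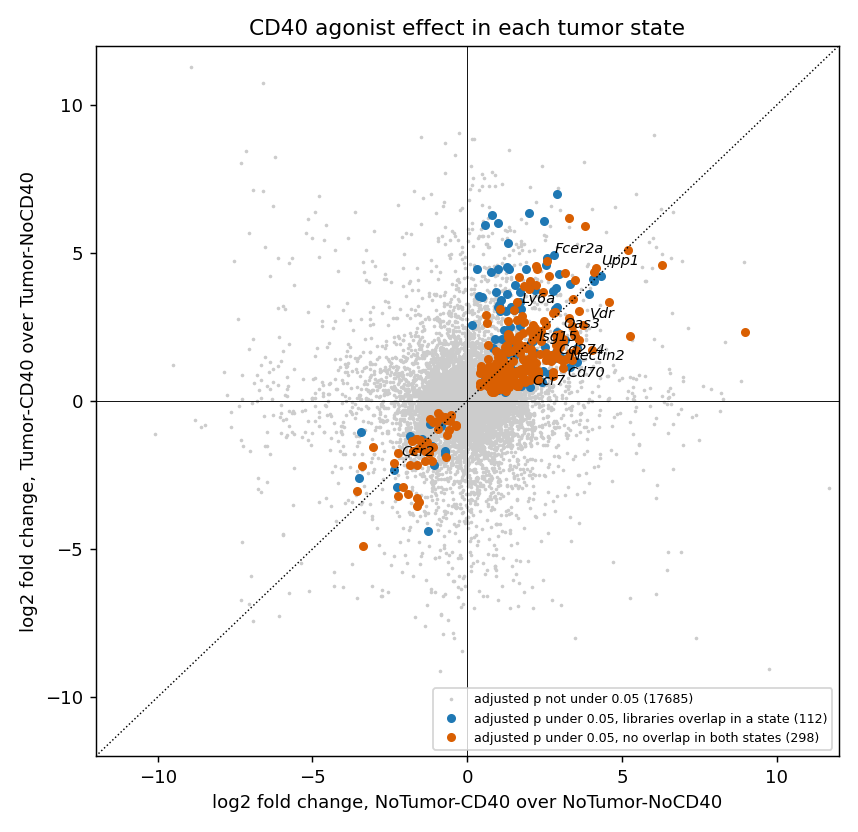
Each point is 1 of the 18095 genes tested, with the log2 fold change of the agonist without tumor on the x axis and with tumor on the y axis; the dotted line marks equal size. The 298 genes alike in both states are orange and the other 112 genes called in the additive model blue. All of them lie to the upper right or the lower left of the origin, most to the upper right. Calls and axes come from the same 12 libraries, so this agreement in sign is partly set by the selection.

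The count depends on single libraries. It was between 194 and 492 higher and between 11 and 200 lower when 1 library was left out. More than 351 genes were called higher only without NoTumor-CD40 library 2 (401) or Tumor-NoCD40 library 3 (492). All other leave-outs gave fewer. The lowest counts came without NoTumor-CD40 library 1 (208), NoTumor-NoCD40 library 1 (232), 2 (194) or 3 (199) and Tumor-NoCD40 library 2 (229). The genes alike and higher were between 160 (without NoTumor-NoCD40 library 2) and 375 (without Tumor-NoCD40 library 3). At least 158 of the 253 were shared with each of these 12 fits. Of the 59 genes called lower at least 7 were shared, and of the 45 alike and lower at least 6. Of the 85 called genes picked by rule, 56 stayed past the threshold in all 12 fits and 29 missed it in 2 to 11 of them, which is given beside those described in detail.

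CD40 itself and most of its signaling chain did not pass the test, while a few members rose in both states. Of 15 genes for the receptor, its TRAF adaptors and kinases, 2 rose, Traf1 and Jak3, and both were alike in both states. For this list and each list below, 1.94% of all genes tested were called higher and 0.326% lower. Over all genes, 1.4% were alike and higher and 0.249% alike and lower. The median log2 fold change of these 15 genes was 0.21, 0.58 without tumor and -0.05 with tumor. Cd40 had 479, 280 and 490 CPM in the NoTumor-CD40 libraries, against 246, 200 and 161 CPM in the NoTumor-NoCD40 libraries. It had 296, 261 and 200 CPM in the Tumor-CD40 libraries, against 305, 143 and 297 CPM in the Tumor-NoCD40 libraries. The groups therefore did not overlap without tumor and overlapped with tumor, and the log2 fold change over both states was 0.53 ± 0.24 (SE; edgeR adjusted p = 0.28).

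Jak3, a kinase used by cytokine receptors and reported to bind CD40, had 67.8, 52.5 and 71.4 CPM in the NoTumor-CD40 libraries, against 38.8, 40.7 and 45.5 CPM in the NoTumor-NoCD40 libraries. It had 85.8, 81.2 and 99.3 CPM in the Tumor-CD40 libraries, against 51.3, 45.5 and 76.5 CPM in the Tumor-NoCD40 libraries. The change was of the same size in both states, 0.62 ± 0.21 without tumor and 0.62 ± 0.20 with tumor, with a 95% interval of the difference from -0.62 to 0.63 (edgeR adjusted p of the common effect = 0.0325). Traf1, an adaptor that binds TRAF2 and is itself an NF-kB target, averaged 1009 ± 296 CPM in agonist libraries and 500 ± 164 CPM in libraries without agonist (SD, n = 6 each), with a log2 fold change of 1.45 ± 0.29 without tumor and 0.57 ± 0.29 with tumor. The call of Jak3 was lost in 10 and that of Traf1 in 8 of the 12 fits that leave out 1 library, in both cases among others without NoTumor-CD40 library 1.

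Among 15 NF-kB subunits and inhibitors 1 rose in the additive model of edgeR, Bcl3, against 1.94% of all genes tested. Of the 15, 14 had a log2 fold change above 0. DESeq2 called 3 of the 15 and limma-voom 1, edgeR with the mature to identity ratio as covariate (chosen after seeing the data) 5, and edgeR without 1 library between 1 and 4, the highest without Tumor-NoCD40 library 3. Bcl3, an atypical IkB protein that works with p50 and p52 in the nucleus, had 69.7, 73.1 and 93.3 CPM in the NoTumor-CD40 libraries, against 41.4, 32.2 and 28.8 CPM in the NoTumor-NoCD40 libraries. With a tumor it had 82.6, 91.1 and 65.9 CPM in the Tumor-CD40 libraries, against 49, 41.6 and 45.3 CPM in the Tumor-NoCD40 libraries. All 6 agonist libraries lay above all 6 others, at a log2 fold change of 1.01 ± 0.14 (SE; edgeR adjusted p = 0.00179). The list's median was 0.47 over both states, 0.95 without tumor and 0.02 with tumor.

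Of 14 costimulatory ligands measured, 4 rose, and all 4 were alike in both states: Cd80, Tnfsf15, Tnfsf9 and Tnfsf4. Over all genes tested, 1.94% rose and 1.4% were alike and higher. Cd80, which binds CD28 and CTLA-4 on T cells, had 123, 57.5 and 113 CPM in the NoTumor-CD40 libraries, against 34, 26.4 and 26.4 CPM in the NoTumor-NoCD40 libraries. With a tumor it had 75.2, 91.4 and 67 CPM in the Tumor-CD40 libraries, against 43.8, 36.9 and 29.9 CPM in the Tumor-NoCD40 libraries. Every agonist library was above every other library, with a common log2 fold change of 1.42 ± 0.20 (SE; edgeR adjusted p = 0.00193).

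The other 3 belong to the tumor necrosis factor family. Tnfsf9, which encodes the ligand of 4-1BB, averaged 13.4 ± 4.92 CPM in agonist libraries and 4.91 ± 2.12 CPM in libraries without agonist. Tnfsf4, the ligand of OX40, averaged 9.92 ± 5.58 CPM in agonist libraries and 2.39 ± 2.01 CPM in libraries without agonist, and Tnfsf15, the ligand of DR3, 2.33 ± 1.97 CPM in agonist libraries and 0.292 ± 0.138 CPM in those without (SD, n = 6 each). The edgeR adjusted p was 0.0241 for Tnfsf9, 0.037 for Tnfsf4 and 0.00617 for Tnfsf15; leaving out 1 library ended the call of Tnfsf9 in 5 and of Tnfsf4 in 8 of 12 fits. Cd86, the other ligand of CD28, had a log2 fold change of 0.36 ± 0.18 (SE; edgeR adjusted p = 0.33), and Cd70, the ligand of CD27, one of 1.69 ± 0.44 (edgeR adjusted p = 0.0627), with 3.01 ± 0.47 without tumor and 0.57 ± 0.43 with tumor.

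Of 19 coinhibitory ligands and enzymes, 3 rose, and these 3 were alike: Tnfrsf14, Cd274 and Nectin2. Over all genes tested, 1.94% rose and 1.4% were alike and higher. Cd274, which encodes PD-L1, had 268, 145 and 347 CPM in the NoTumor-CD40 libraries, against 53.7, 39.4 and 23.2 CPM in the NoTumor-NoCD40 libraries. It had 186, 243 and 199 CPM in the Tumor-CD40 libraries, against 104, 54.7 and 85.5 CPM in the Tumor-NoCD40 libraries. The 6 agonist libraries lay above the 6 others, with a common log2 fold change of 2.02 ± 0.30 (SE; edgeR adjusted p = 0.00232), 2.71 ± 0.35 without tumor and 1.36 ± 0.33 with tumor. Tnfrsf14, which encodes HVEM, the binding partner of BTLA and LIGHT, averaged 51.6 ± 15.9 CPM in agonist libraries and 20.8 ± 3.07 CPM in libraries without agonist (SD, n = 6 each; log2 fold change 1.30 ± 0.19 SE, edgeR adjusted p = 0.00214). Pdcd1lg2, which encodes PD-L2, had a common log2 fold change of 0.93 ± 0.27 (edgeR adjusted p = 0.0938).

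**Figure D2:**
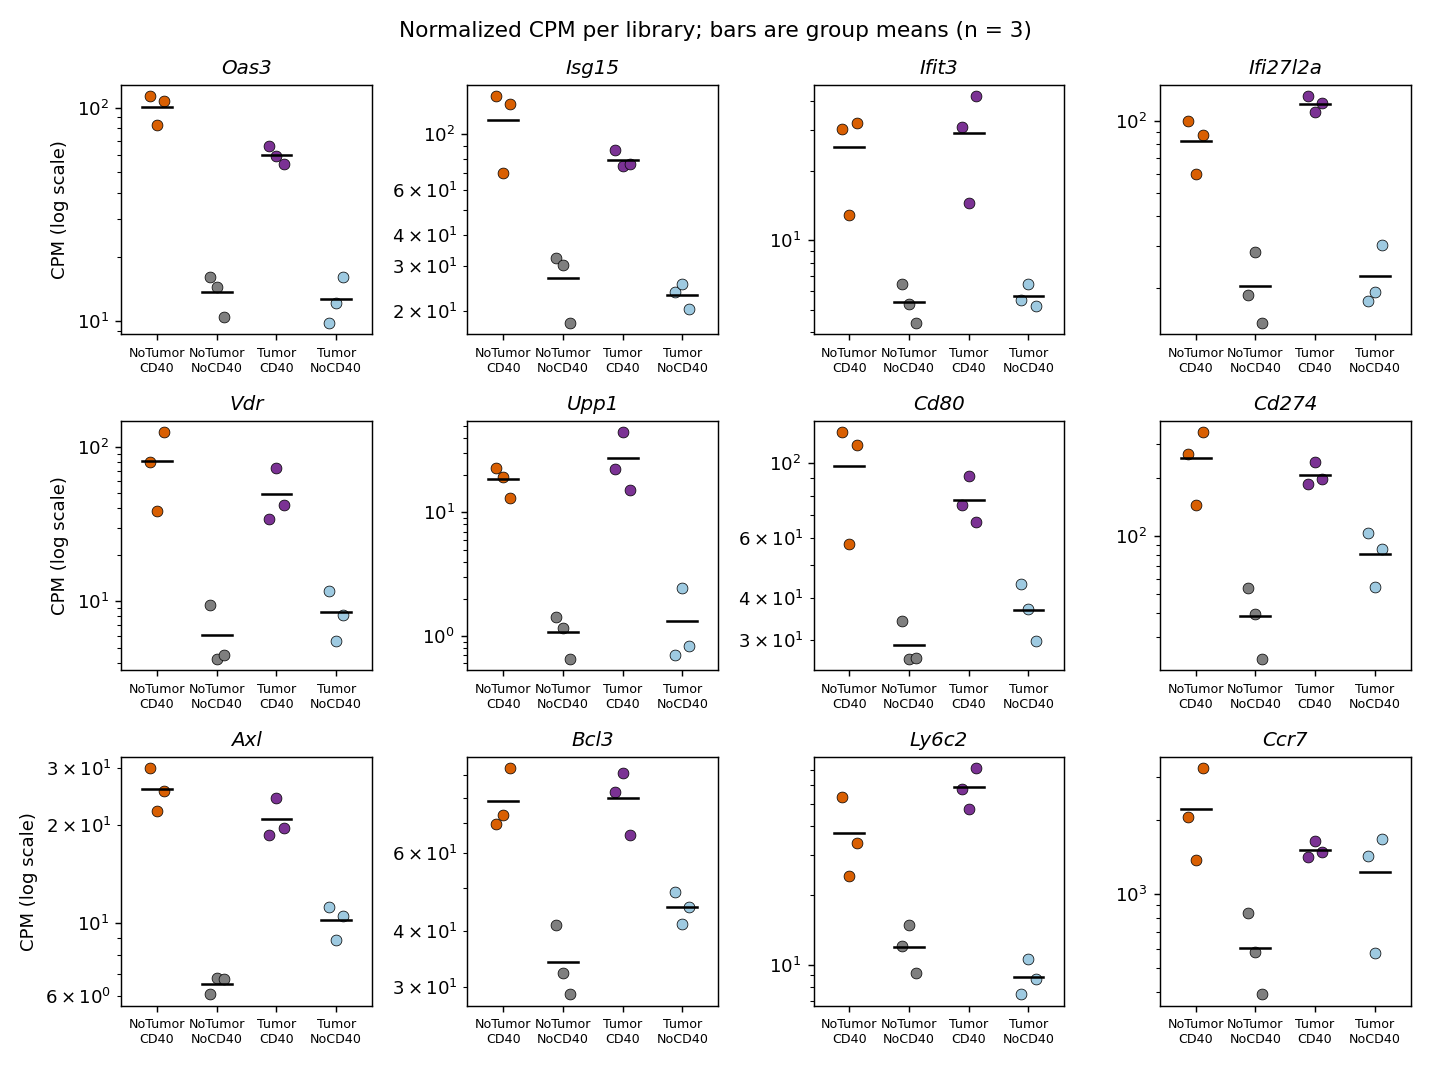
Normalized CPM (log scale) of 12 genes in each library, by group; points are libraries and bars are group means of 3. In 11 panels the agonist libraries of a tumor state all lie above the libraries without agonist of the same state; in the panel of Ccr7 they do so without tumor and overlap with tumor.

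Of 18 cytokine genes 4 rose, Il27, Il1rn, Il12a and Lta, and 1 fell, Tnfsf13b, against 1.94% higher and 0.326% lower over all genes. Il27, the subunit p28 of interleukin 27, had 19.9, 12.9 and 37 CPM in the NoTumor-CD40 libraries, against 4.4, 2.69 and 1.97 CPM in the NoTumor-NoCD40 libraries. It had 11.7, 9.49 and 6.14 CPM in the Tumor-CD40 libraries, against 1.12, 3.58 and 4.98 CPM in the Tumor-NoCD40 libraries. The groups did not overlap in either state (log2 fold change 2.25 ± 0.39 SE, edgeR adjusted p = 0.00696). Il1rn, the antagonist of the interleukin 1 receptor, was also alike, at 9.09 ± 4.26 CPM in agonist libraries and 1.57 ± 1.23 CPM in libraries without agonist (SD, n = 6 each; edgeR adjusted p = 0.00831).

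Il12a, the p35 subunit of interleukin 12, averaged 1.77 ± 1.41 CPM in agonist libraries and 0.128 ± 0.206 CPM in libraries without agonist, with NoTumor-CD40 library 2 at 0.0393 CPM, so that its libraries overlapped; its call was lost without NoTumor-CD40 library 1 and without Tumor-NoCD40 library 2. Il12b, the p40 subunit, averaged 150 ± 39.9 CPM in agonist libraries and 91 ± 31.4 CPM in libraries without agonist, at an edgeR adjusted p of 0.0866. Tnfsf13b, which encodes the B cell survival factor BAFF, averaged 1.69 ± 0.78 CPM in agonist libraries and 5.01 ± 1.18 CPM in libraries without agonist, without overlap in either state (log2 fold change -1.56 ± 0.33 SE, edgeR adjusted p = 0.0238, lost in 4 of 12 leave-outs). None of 16 chemokine genes passed edgeR's adjusted threshold, with 2 higher and 1 lower at an unadjusted p under 0.05, and DESeq2 and limma-voom called 0 as well.

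In the additive model of edgeR, most genes of the list of mature, migratory dendritic cells were not called. The list as a whole was not tested. Of 31 members 3 rose, Bcl2l14, Traf1 and Serpinb9, against 1.94% of all genes tested. Of the 31, 22 had a log2 fold change above 0 in the additive model, and 8 had one above 0 in both states. At an unadjusted p under 0.05, 9 were higher and 1 lower. The list's median log2 fold change was 1.06 without tumor and -0.28 with tumor. Leaving out 1 library gave 1 to 7 members called higher, the most without Tumor-NoCD40 library 3. Without library 3 of both tumor groups, left out after seeing the data, 4 were called higher. In that fit 15 were higher and 0 lower at an unadjusted p under 0.05. Bcl2l14, a relative of the BCL2 family, averaged 430 ± 166 CPM in agonist libraries and 112 ± 35.2 CPM in libraries without agonist, alike in both states (log2 fold change 1.96 ± 0.26 SE, edgeR adjusted p = 0.00133). Ccr7, the chemokine receptor that leads mature dendritic cells to lymph nodes, had 2053, 1368 and 3251 CPM in the NoTumor-CD40 libraries, against 838, 582 and 390 CPM in the NoTumor-NoCD40 libraries. It had 1416, 1642 and 1479 CPM in the Tumor-CD40 libraries, against 1429, 573 and 1678 CPM in the Tumor-NoCD40 libraries. The libraries did not overlap without tumor and did with tumor, and the common effect was 1.09 ± 0.35 (edgeR adjusted p = 0.128).

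The summed level of the mature list lay between 21200 and 51700 CPM in agonist libraries and between 11200 and 43200 CPM in those without, and that of the cDC1 identity list between 6720 and 14700 CPM in agonist libraries and between 5290 and 19400 CPM in those without. Both ranges overlapped. Of 29 cDC1 identity genes 1 fell, Cd207, and 21 had values below 0 in both states, with a list median of -0.63; Xcr1 stood at -0.84 ± 0.50 (edgeR adjusted p = 0.4) and Clec9a, the receptor for dead-cell actin, at -0.65 ± 0.43 (adjusted p = 0.467). With the log2 ratio of the mature to the identity sum as a further covariate, an alternative chosen after seeing the data, 614 genes were called higher and 281 lower, of which 342 and 52 were among the 351 and 59. The part of this balance in the results was not otherwise tested.

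Genes of the type I interferon response rose with the agonist, most of them without overlap of libraries in either state. Of 41 members measured, 24 rose and 0 fell, against 1.94% of all genes higher, and 20 of the 24 were alike in both states. By unadjusted p under 0.05 the list had 36 higher and 1 lower, and DESeq2 called 30 higher and limma-voom 22, with 0 lower in each. Its median log2 fold change was 1.15 in the additive model, 0.95 without tumor and 1.43 with tumor. The 24 genes include Oas3, Ifi27l2a, Isg15, Oasl2, Oas1a, Oasl1, Zbp1, Ifit3, Rsad2, Xaf1, Ifitm3, Rtp4, Ddx58, Ifit1, Isg20, Ifit3b, Parp14, Stat2, Usp18, Irf7, Ifit1bl1, Bst2 and Irf9. Mx1 and Mx2, dynamin-like GTPases against viruses, had values of -0.22 and 0.53 (edgeR adjusted p = 0.58 and 0.49). The summed level of the list did not overlap between arms, at 3120 to 4100 CPM in agonist libraries and 1500 to 2400 CPM in libraries without agonist. The number called was between 16 and 26 when 1 library was left out, with the lowest without NoTumor-CD40 library 1.

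Oas3 (ENSMUSG00000032661, GRCm38 chromosome 5, 120753098 to 120777661, minus strand), an oligoadenylate synthetase that activates the nuclease RNase L, had the lowest p of the additive model among the interferon genes. It had 113, 82.7 and 108 CPM in the NoTumor-CD40 libraries, against 16.1, 14.4 and 10.4 CPM in the NoTumor-NoCD40 libraries. With a tumor it had 65.8, 59.2 and 54.3 CPM in the Tumor-CD40 libraries, against 9.83, 12.2 and 16.1 CPM in the Tumor-NoCD40 libraries. Every agonist library lay above every other library, and the common log2 fold change was 2.56 ± 0.18 (SE; edgeR adjusted p = 9.12e-06). The effect was 2.88 ± 0.23 without tumor and 2.23 ± 0.22 with tumor, with a 95% interval of the difference from -1.32 to 0.01.

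Isg15 (chromosome 4, 156199424 to 156200818), a ubiquitin-like protein that is joined to other proteins, had 141, 70.0 and 131 CPM in the NoTumor-CD40 libraries, against 32.4, 30.4 and 18 CPM in the NoTumor-NoCD40 libraries. With a tumor it had 86.5, 75.1 and 76.2 CPM in the Tumor-CD40 libraries, against 23.7, 25.5 and 20.4 CPM in the Tumor-NoCD40 libraries. All agonist libraries lay above all others (log2 fold change 1.93 ± 0.19 SE, edgeR adjusted p = 0.000177). Ifit3 (chromosome 19, 34583531 to 34588731), an antiviral protein with tetratricopeptide repeats, had 30.5, 12.9 and 32.4 CPM in the NoTumor-CD40 libraries, against 6.47, 5.29 and 4.39 CPM in the NoTumor-NoCD40 libraries. It had 31.1, 14.6 and 42.1 CPM in the Tumor-CD40 libraries, against 5.5, 6.44 and 5.2 CPM in the Tumor-NoCD40 libraries. Library 2 was the lowest of both agonist groups and still above every library without agonist (2.29 ± 0.29 SE, edgeR adjusted p = 0.000914).

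Ifi27l2a, a small interferon-induced membrane protein, averaged 100 ± 24.1 CPM in agonist libraries and 21.3 ± 6.37 CPM in libraries without agonist (SD, n = 6 each; edgeR adjusted p = 6.94e-05). Rsad2 (chromosome 12, 26442746 to 26456452), which encodes the antiviral enzyme viperin, averaged 42.6 ± 17.3 CPM in agonist libraries and 10.8 ± 2.54 CPM in those without (1.96 ± 0.25 SE, edgeR adjusted p = 0.00109). Oasl2 averaged 48.8 ± 18.4 CPM in agonist libraries and 7.91 ± 2.46 CPM in those without (2.59 ± 0.26 SE, edgeR adjusted p = 0.000212). Reads of the Oas and Oasl genes, of Ifit3 and Ifit3b, and of Tgtp1 and Tgtp2 can be shared between near-identical copies, so the division among the copies is uncertain.

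Of the 15 interferon regulatory and STAT factors, 4 rose, and they were alike, among them Stat2, Irf9 and Irf7. Stat2 and Irf9 carry the type I interferon signal to the nucleus, and Irf7 amplifies it. Stat2 averaged 125 ± 14.3 CPM in agonist libraries and 84.5 ± 18.1 CPM in those without, and Irf9 averaged 148 ± 14.2 CPM in agonist libraries and 108 ± 19.4 CPM in those without (SD, n = 6 each). The common log2 fold change was 0.57 ± 0.13 for Stat2 and 0.46 ± 0.11 for Irf9 (SE; edgeR adjusted p = 0.0342 and 0.0479), and leaving out 1 library ended the call of Stat2 in 8 and of Irf9 in 10 of 12 fits. Irf7 had 320, 256 and 199 CPM in the NoTumor-CD40 libraries, against 96, 149 and 120 CPM in the NoTumor-NoCD40 libraries, and 294, 324 and 168 CPM in the Tumor-CD40 libraries, against 68.2, 164 and 31.2 CPM in the Tumor-NoCD40 libraries. It did not overlap in either state (1.33 ± 0.31 SE, edgeR adjusted p = 0.0358, lost in 7 of 12 leave-outs). Irf8, the factor that specifies cDC1, was at -0.27 ± 0.23 (adjusted p = 0.585).

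Of 30 interferon gamma response genes and interferon-inducible GTPases, 11 rose, 0 fell and 10 were alike in both states, with a median log2 fold change of 0.80, 0.74 without tumor and 0.63 with tumor. The 11 include Igtp, Cd274, Ifi47, Tgtp1, Irgm1, Gbp6, Gbp3, Iigp1, Tgtp2 and Irgm2. Igtp (chromosome 11, 58199556 to 58207591), a GTPase that acts on vacuoles of intracellular microbes, had 50.9, 46.2 and 51.5 CPM in the NoTumor-CD40 libraries, against 28.3, 29.4 and 28.8 CPM in the NoTumor-NoCD40 libraries. With a tumor it had 60.1, 45.2 and 57.5 CPM in the Tumor-CD40 libraries, against 26.9, 25 and 31.7 CPM in the Tumor-NoCD40 libraries. The arms did not overlap, the common log2 fold change was 0.87 ± 0.12 (SE; edgeR adjusted p = 0.00145), and the 95% interval of the difference between states ran from -0.33 to 0.69. In DESeq2 14 genes of the list were called, and in limma-voom 10.

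Of 24 nucleic acid sensors and Toll-like receptors, 7 rose and were alike in both states: Zbp1, Tlr7, Tlr1, Ddx58, Tmem173, Adar and Trex1. Over all genes tested, 1.94% rose and 1.4% were alike and higher. Zbp1, a sensor of left-handed nucleic acids, averaged 78 ± 15.5 CPM in agonist libraries and 33.1 ± 2.23 CPM in libraries without agonist (SD, n = 6 each; 1.23 ± 0.14 SE, edgeR adjusted p = 0.000351). Ddx58, which encodes RIG-I, averaged 30.4 ± 12 CPM in agonist libraries and 12.4 ± 2.31 CPM in those without. Tlr7, the receptor of single-stranded RNA, which B cells also express, had 3.74, 2.4 and 2.5 CPM in the NoTumor-CD40 libraries, against 1.42, 0.767 and 0.287 CPM in the NoTumor-NoCD40 libraries. It had 14.5, 10 and 20.5 CPM in the Tumor-CD40 libraries, against 2.56, 1.39 and 2.18 CPM in the Tumor-NoCD40 libraries. Its highest level was in the library with the most B cell transcripts. The part of B cell RNA in the Tlr7 values was not tested.

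The stretches before the start of 6 of these genes that rose together are shown because they hold the core of the interferon-stimulated response element, to which STAT2, IRF9 and other IRF proteins bind as parts of complexes. They are the 250 bases before the annotated start in RefSeq on GRCm38.p6, 5′ to 3′ on the strand of the gene. Capitals mark matches, on either strand, of GAAA, then any 2 bases, then GAAA. A match on the opposite strand reads TTTC, any 2 bases, TTTC, and overlapping matches run together. Tnfrsf14 is given as a member outside the interferon lists. The windows are chr5:120777660-120777909 (minus strand) for Oas3, chr4:156200819-156201068 (minus) for Isg15, chr19:34583279-34583528 (plus) for Ifit3, chr12:26456453-26456702 (minus) for Rsad2, chr11:58199306-58199555 (plus) for Igtp and chr4:154928078-154928327 (minus) for Tnfrsf14.
Oas3: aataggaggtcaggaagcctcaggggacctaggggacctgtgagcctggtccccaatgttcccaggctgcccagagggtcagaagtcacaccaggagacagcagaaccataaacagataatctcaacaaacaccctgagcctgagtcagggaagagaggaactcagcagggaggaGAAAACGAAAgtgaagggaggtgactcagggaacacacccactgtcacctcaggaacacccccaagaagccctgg
Isg15: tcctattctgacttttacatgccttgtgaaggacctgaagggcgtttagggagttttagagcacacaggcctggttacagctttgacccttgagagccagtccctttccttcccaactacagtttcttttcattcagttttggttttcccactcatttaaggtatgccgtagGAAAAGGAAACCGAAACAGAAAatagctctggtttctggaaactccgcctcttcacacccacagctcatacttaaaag
Ifit3: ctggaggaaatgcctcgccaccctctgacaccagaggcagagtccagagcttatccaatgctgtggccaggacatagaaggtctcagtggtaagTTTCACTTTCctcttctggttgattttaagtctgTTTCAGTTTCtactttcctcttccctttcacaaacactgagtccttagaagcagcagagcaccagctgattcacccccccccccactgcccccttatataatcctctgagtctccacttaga
Rsad2: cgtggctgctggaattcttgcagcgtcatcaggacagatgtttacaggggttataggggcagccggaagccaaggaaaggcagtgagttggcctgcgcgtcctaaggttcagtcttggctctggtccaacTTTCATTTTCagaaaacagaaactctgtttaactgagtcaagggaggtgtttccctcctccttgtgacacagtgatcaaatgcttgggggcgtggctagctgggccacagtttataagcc
Igtp: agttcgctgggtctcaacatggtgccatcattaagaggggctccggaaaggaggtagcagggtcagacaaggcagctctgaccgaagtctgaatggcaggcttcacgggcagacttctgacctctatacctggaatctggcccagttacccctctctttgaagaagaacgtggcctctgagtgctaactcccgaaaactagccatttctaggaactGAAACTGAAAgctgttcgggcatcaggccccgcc
Tnfrsf14: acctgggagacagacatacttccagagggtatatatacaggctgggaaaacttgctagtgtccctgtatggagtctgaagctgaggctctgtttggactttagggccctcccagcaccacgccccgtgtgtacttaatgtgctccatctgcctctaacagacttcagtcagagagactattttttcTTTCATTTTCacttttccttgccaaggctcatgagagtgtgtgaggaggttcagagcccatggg
The matches begin 75 bases before the start in Oas3, 78, 72 and 66 before it in Isg15 (3 overlapping), 156 and 122 before it in Ifit3, 120 before it in Rsad2, 34 before it in Igtp and 64 before it in Tnfrsf14. Over all 32851 windows of the table, 2.98% held such a match. Windows were available for 175 of the 253 genes alike and higher, under 80% of them, so a share over these genes is void and is not given. The windows were picked for holding a match, which is a description of the letters.

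Uptake and survival genes added single members. Of 24 uptake and cross-presentation genes 4 rose, Axl, Cybb, Itgav and Syk, and all but Cybb were alike. Over all genes tested, 1.94% rose and 1.4% were alike and higher. Axl, a receptor for apoptotic cells coated with Gas6, had 29.9, 22.1 and 25.5 CPM in the NoTumor-CD40 libraries, against 6.05, 6.79 and 6.72 CPM in the NoTumor-NoCD40 libraries. It had 18.7, 24.2 and 19.6 CPM in the Tumor-CD40 libraries, against 11.2, 8.88 and 10.5 CPM in the Tumor-NoCD40 libraries. The arms did not overlap (1.49 ± 0.20 SE, edgeR adjusted p = 0.00113). Of 24 survival and apoptosis genes, Bcl2l14, Bcl2l11 and Serpinb9 rose. Bcl2l11, which encodes the death-promoting BIM, averaged 104 ± 24.7 CPM in agonist libraries and 46.8 ± 9.35 CPM in libraries without agonist, alike in both states (edgeR adjusted p = 0.00203), and Serpinb9, an inhibitor of granzyme B, averaged 953 ± 404 CPM in agonist libraries and 394 ± 160 CPM in those without (adjusted p = 0.0488, lost in 8 of 12 leave-outs), with overlap in the tumor state.

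Large changes in both states were also seen outside these lists. Upp1 (chromosome 11, 9118103 to 9136170), the uridine phosphorylase that breaks down uridine, had 22.9, 19.5 and 13 CPM in the NoTumor-CD40 libraries, against 1.42, 1.15 and 0.656 CPM in the NoTumor-NoCD40 libraries. It had 22.4, 44.6 and 15.1 CPM in the Tumor-CD40 libraries, against 0.702, 2.45 and 0.836 CPM in the Tumor-NoCD40 libraries. The arms were far apart in both states (4.23 ± 0.36 SE, edgeR adjusted p = 6.67e-05). Near it on the same chromosome, Abca13 (9191942 to 9684259), a large lipid transporter, averaged 34 ± 20.1 CPM in agonist libraries and 1.66 ± 0.908 CPM in libraries without agonist (4.34 ± 0.39 SE, edgeR adjusted p = 6.94e-05).

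Vdr, the vitamin D receptor, had 79.8, 38.4 and 124 CPM in the NoTumor-CD40 libraries, against 9.41, 4.26 and 4.51 CPM in the NoTumor-NoCD40 libraries. With a tumor it had 34.2, 72.7 and 42.1 CPM in the Tumor-CD40 libraries, against 11.7, 5.57 and 8.17 CPM in the Tumor-NoCD40 libraries. It rose 3.13 ± 0.36 on the log2 scale (SE; edgeR adjusted p = 0.000498), without overlap. Its partner Rxra fell, at 26 ± 7.08 CPM in agonist libraries and 52.2 ± 17.2 CPM in libraries without agonist (-0.99 ± 0.24 SE, edgeR adjusted p = 0.0426, lost in 9 of 12 leave-outs). Rxra was not alike, since its libraries overlapped within a tumor state. Vdr and Rxra were the called members among 14 vitamin A and vitamin D pathway genes measured. Further genes with a large change in both states were Dnah1, a dynein heavy chain of cilia (6.53 ± 2.3 CPM in agonist libraries and 0.595 ± 0.494 CPM in those without) and Map1b, a microtubule protein best known from neurons (8.15 ± 3.58 CPM in agonist libraries and 0.982 ± 0.282 CPM in those without). Pla1a, a phospholipase, averaged 12.4 ± 6.69 CPM in agonist libraries and 1.88 ± 0.99 CPM in those without. The predicted genes Gm6545 and Gm5431 were in this set as well and may share reads with related copies.

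**Figure D3:**
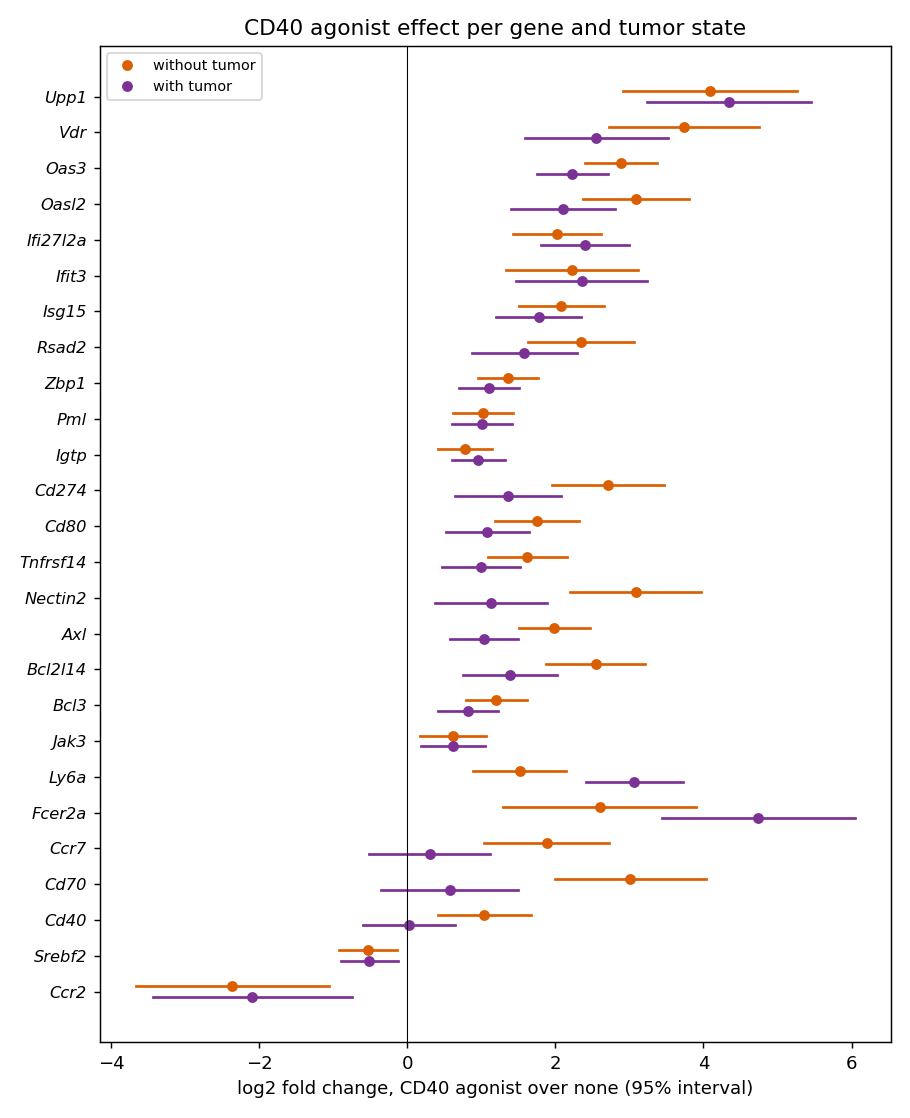
Log2 fold change of the agonist (agonist over none) with its 95% interval for 26 genes, without tumor (orange) and with tumor (purple). Upp1, Ifit3, Pml and Jak3 have nearly equal values in both states; Nectin2, Axl, Cd274 and Ccr7 are larger without tumor, and Ly6a and Fcer2a larger with tumor.

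Fewer genes fell, and these counts were the least stable. The 45 genes alike and lower include Ccr2, Cd207, Dkk3, Serpinb10, Dennd2c, Sgk1 and Tnfsf13b. Ccr2, the receptor for Ccl2 that monocytes carry, had 33.9, 92.4 and 7.93 CPM in the NoTumor-CD40 libraries, against 162, 245 and 283 CPM in the NoTumor-NoCD40 libraries. It had 28, 19.7 and 18.3 CPM in the Tumor-CD40 libraries, against 93, 147 and 40.8 CPM in the Tumor-NoCD40 libraries. The libraries did not overlap within a state, though NoTumor-CD40 library 2 lay above Tumor-NoCD40 library 3 (-2.23 ± 0.43 SE, edgeR adjusted p = 0.0129). Cd207, which encodes langerin, found on Langerhans cells and on part of the cDC1, averaged 18.2 ± 29.3 CPM in agonist libraries and 73.6 ± 37.8 CPM in libraries without agonist (adjusted p = 0.0452, lost in 10 of 12 leave-outs). Sgk1, a kinase induced by glucocorticoids, averaged 9.95 ± 5.42 CPM in agonist libraries and 27.9 ± 14.3 CPM in those without, and Dennd2c, an exchange factor for Rab proteins, 2.34 ± 1.21 CPM in agonist libraries and 6.9 ± 1.36 CPM in those without (adjusted p = 0.0401 and 0.0142, the call of Sgk1 lost in 9 of 12 leave-outs).

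Of 23 genes of cholesterol synthesis 2 fell, Fdps and Srebf2, and Srebf2 was alike in both states. Fdps, which makes farnesyl diphosphate, averaged 43.2 ± 9.78 CPM in agonist libraries and 77.6 ± 19.4 CPM in libraries without agonist (-0.85 ± 0.19 SE, edgeR adjusted p = 0.032), and Srebf2, the factor that turns the pathway on, 244 ± 41 CPM in agonist libraries and 350 ± 25.2 CPM in those without (-0.52 ± 0.13 SE, adjusted p = 0.045). Fdps overlapped without tumor, where NoTumor-CD40 library 2 stood at 57.0 CPM, against 49.8 CPM in NoTumor-NoCD40 library 3. Leaving out 1 library ended the call of Fdps in 8 and of Srebf2 in 10 of 12 fits. The list's median log2 fold change was -0.55, against -0.03 over all genes, with 22 of 23 members below 0 in both states and 17 lower at an unadjusted p under 0.05. DESeq2 called 4 members lower and limma-voom 1. Antxr2, a receptor of anthrax toxin, also fell by the same size in both states (-0.52 ± 0.17 without tumor and -0.47 ± 0.17 with tumor, adjusted p of the common effect = 0.0446, lost in 11 of 12 leave-outs).

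Lists that gave few or no calls included antigen presentation and growth. None of 22 MHC class I genes passed edgeR's threshold (2 higher at an unadjusted p under 0.05, 0 called by DESeq2 and by limma-voom), and none of 16 MHC class II genes (3 higher and 1 lower unadjusted, 2 called higher by DESeq2 and 0 by limma-voom). None of 28 cell cycle genes passed (5 lower unadjusted, 1 called lower by DESeq2, 0 by limma-voom), with a median of -0.31. Of 78 mitochondrial ribosomal protein genes 0 passed (2 higher and 13 lower unadjusted, 1 called lower by DESeq2, 0 by limma-voom). Edem1 of the unfolded protein response, which helps clear misfolded proteins, rose (207 ± 34.4 CPM in agonist libraries and 137 ± 10.2 CPM in libraries without agonist, edgeR adjusted p = 0.0205, lost in 5 of 12 leave-outs). Eno3, an enolase of glycolysis, fell (100 ± 25 CPM in agonist libraries and 239 ± 114 CPM in those without, edgeR adjusted p = 0.0379, lost in 8 of 12 leave-outs). Edem1 was alike in both states, while Eno3 was not, since its libraries overlapped within a tumor state.

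**Figure D4:**
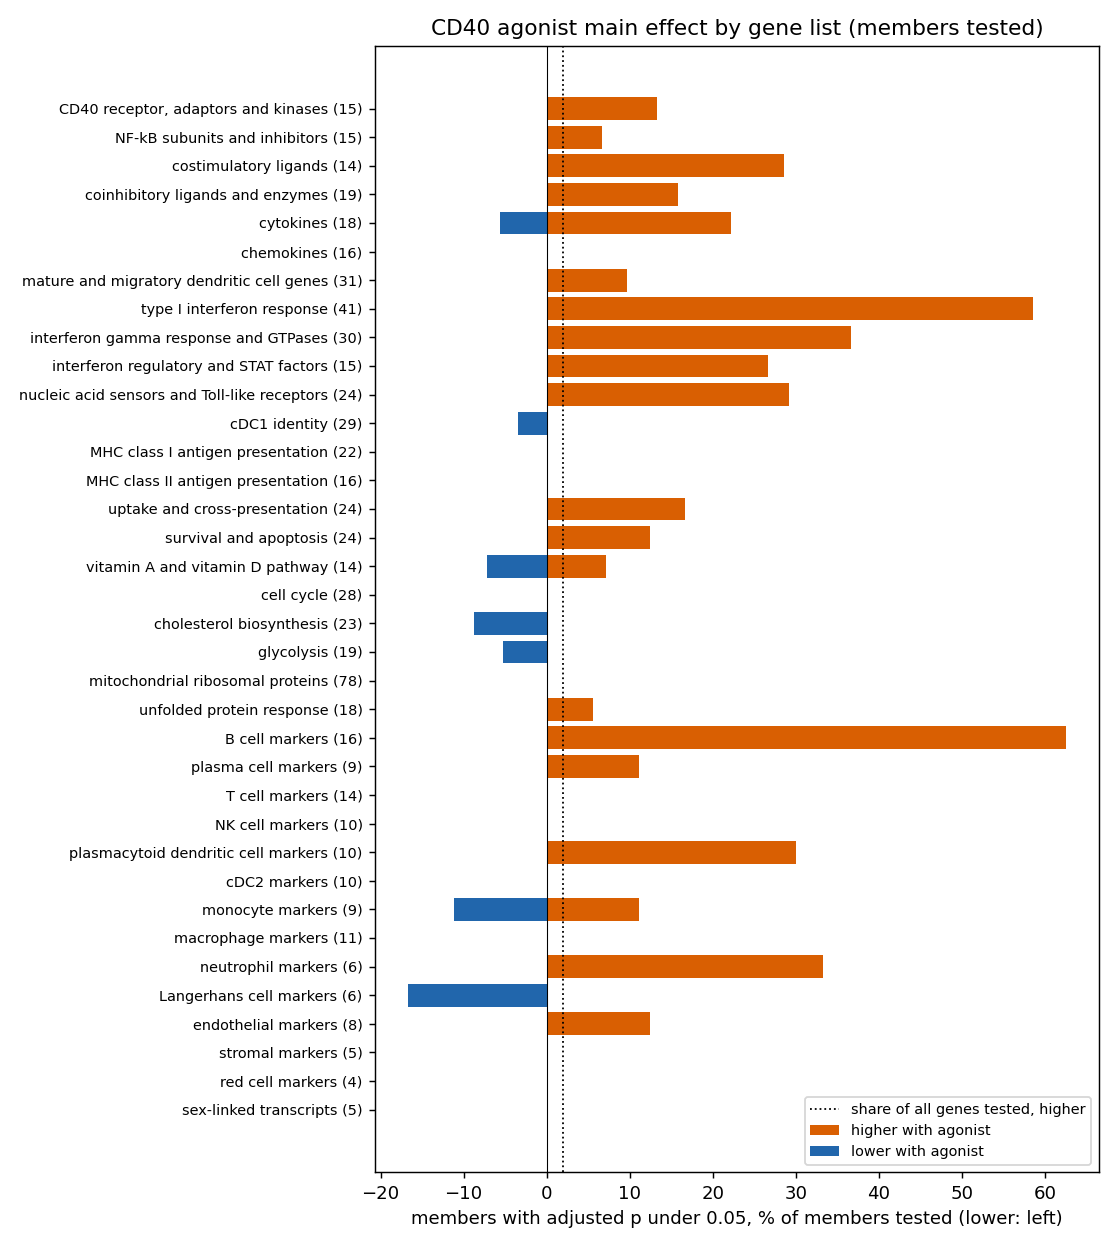
Share of the measured members of each gene list that passed the test of the agonist effect (x axis, in % of members tested), higher to the right in orange and lower to the left in blue; the number in brackets is the number of members tested and the dotted line the share of all genes called higher. The B cell markers and the type I interferon response reach furthest to the right.

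Alike in direction is not alike in size. Of the 253 genes alike and higher, 119 had log2 fold changes that differed by under 0.5 between states and 191 by under 1, and the change was larger without tumor in 159 and with tumor in 94. At least a 2-fold change in each state was seen in 129 of them, and at least 4-fold in 49. The 95% interval of the difference lay wholly within 1 log2 unit of 0 for 54 of the 253 and for 9 of the 45, so for the others a difference of 2-fold is not excluded by these libraries. The median of the within-state log2 fold changes of the 253 was 1.48 without tumor and 1.12 with tumor.

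By the 95% interval of the difference between states, taken by its bound farther from 0 among called genes of at least 5 CPM, those most alike in size were Smap2, Parp9, Cnot6l, Antxr2, Pml, Rest, Irf9 and Srebf2, of which Smap2, Parp9 and Pml passed in all 12 leave-outs. Pml, the scaffold of nuclear bodies and an interferon-induced gene, had 219, 146 and 229 CPM in the NoTumor-CD40 libraries, against 99.2, 98.4 and 95 CPM in the NoTumor-NoCD40 libraries. It had 180, 177 and 192 CPM in the Tumor-CD40 libraries, against 72.8, 106 and 94 CPM in the Tumor-NoCD40 libraries. The common log2 fold change was 1.01 ± 0.13 (SE; edgeR adjusted p = 0.00111), and the effects of both states differed by -0.02, with a 95% interval from -0.58 to 0.55. Parp9, an antiviral ADP-ribosyltransferase family member, was at 0.70 ± 0.16 without tumor and 0.65 ± 0.16 with tumor, and Smap2, a GTPase-activating protein of the Arf family, at 0.58 ± 0.15 in each state.

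The test of the difference itself called 0 of 18095 genes (edgeR, smallest adjusted p = 0.495), with 1773 at an unadjusted p under 0.05; DESeq2 called 17, limma-voom 0 and limma-trend on log2(TPM + 1) 2. For 70 of the 410 genes the unadjusted 95% interval excluded 0: 47 of these were called higher and larger without tumor, 19 called higher and larger with tumor. The least alike were Nectin2, Fcrl1, Ly6a, Sema7a, Clip2 and Dgkk, of which Fcrl1 (without Tumor-NoCD40 library 1 or 2) and Clip2 (without any 1 NoTumor-NoCD40 library) missed the threshold of the common effect in leave-outs. Nectin2, a ligand of the T cell receptors PVRIG and TIGIT, had 11.1, 11.9 and 14.6 CPM in the NoTumor-CD40 libraries, against 1.19, 2.07 and 1.15 CPM in the NoTumor-NoCD40 libraries. It had 8.35, 11.1 and 9.39 CPM in the Tumor-CD40 libraries, against 6.49, 4.59 and 2.25 CPM in the Tumor-NoCD40 libraries. The agonist levels were near each other and the levels without agonist differed (3.08 ± 0.41 without tumor and 1.13 ± 0.35 with tumor; difference -1.96, interval -3.16 to -0.75).

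Ly6a, which encodes Sca-1, an interferon-induced surface protein, showed the opposite order. It had 110, 55.6 and 48.6 CPM in the NoTumor-CD40 libraries, against 24.3, 33.4 and 17.1 CPM in the NoTumor-NoCD40 libraries. It had 200, 175 and 212 CPM in the Tumor-CD40 libraries, against 24.9, 23.3 and 21.7 CPM in the Tumor-NoCD40 libraries. The change was 1.52 ± 0.29 without tumor and 3.07 ± 0.30 with tumor, a difference of 1.55 with an interval from 0.67 to 2.43. Sema7a, a membrane semaphorin, averaged 560 ± 237 CPM in agonist libraries and 127 ± 64.2 CPM in libraries without agonist, with 3.09 ± 0.35 without tumor and 1.35 ± 0.33 with tumor. Ly6a, Ly6c2 and other Ly6 genes are similar in sequence, which leaves the division of their reads uncertain.

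Calls within a state were fewer. Without tumor 246 genes were higher (1.36%) and 15 lower (0.0829%), and with tumor 116 higher (0.641%) and 8 lower (0.0442%). Of the 351 genes higher in the additive model, 34 were called in both states, 121 without tumor alone, 58 with tumor alone and 138 in neither. Of the 59 lower genes 0 were called in both states, 6 without tumor alone, 5 with tumor alone and 48 in neither (edgeR), and 49 of the 59 had an unadjusted p under 0.05 in both states. Conversely 100 genes called without tumor and 27 called with tumor were not called in the additive model.

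Markers of other cells moved with the agonist beside these results. Of 16 B cell markers 10 rose and 6 were alike, against 1.94% higher and 1.4% alike and higher over all genes. The summed level of the 16 was 377 to 3440 CPM in agonist libraries and 231 to 464 CPM in libraries without agonist. It was 553, 377 and 383 CPM in the NoTumor-CD40 libraries, against 415, 379 and 331 CPM in the NoTumor-NoCD40 libraries, which overlap. It was 1449, 1291 and 3439 CPM in the Tumor-CD40 libraries, against 464, 417 and 231 CPM in the Tumor-NoCD40 libraries, which do not. Ms4a1, which encodes CD20, stood between 17.1 and 362 CPM in agonist libraries and between 7.09 and 21.6 CPM in those without, and Cd79a, a part of the B cell receptor, between 9.7 and 294 CPM in agonist libraries and between 3.49 and 41 CPM in those without, so neither was at 0 in any library.

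Among the 12 largest common rises named by rule, 2 were B cell genes: Cxcr5, the receptor that leads B cells to follicles, and Fcer2a, which encodes CD23. Fcer2a had 47.7, 15.9 and 45.2 CPM in the NoTumor-CD40 libraries, against 12.2, 3.22 and 2.42 CPM in the NoTumor-NoCD40 libraries. It had 138, 177 and 381 CPM in the Tumor-CD40 libraries, against 12.1, 4.03 and 9.99 CPM in the Tumor-NoCD40 libraries. The libraries did not overlap in either state (3.77 ± 0.52 SE, edgeR adjusted p = 0.00161). Of 112 immunoglobulin genes tested 28 were called and 6 were alike; they resemble each other and are counted only. The part of B cell RNA in the other results was not tested. With immunoglobulin, B cell and plasma cell genes left out, 299 genes were called higher and 238 were alike and higher. That fit only removes these genes from those tested. It leaves the RNA of such cells in each library, so it cannot show their part.

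**Figure D5:**
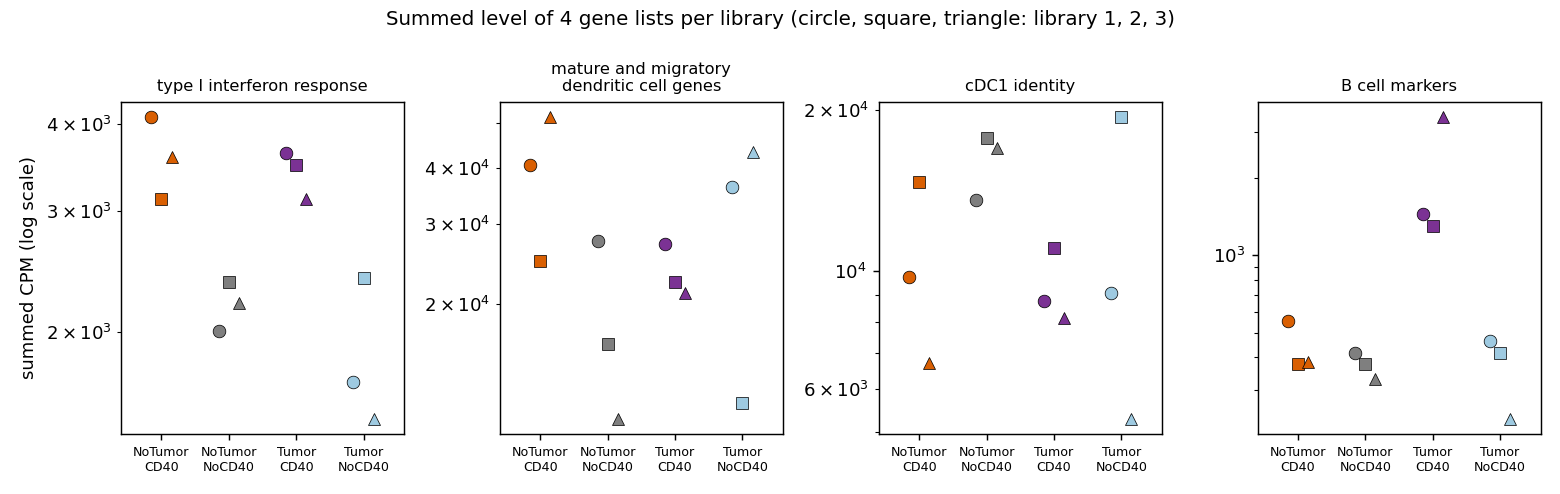
Summed normalized CPM (log scale) of 4 gene lists in each library, by group; circle, square and triangle are library 1, 2 and 3. The type I interferon sums of the 6 agonist libraries (3120 to 4100 CPM) all exceed those of the 6 others (1500 to 2400 CPM), while the sums of mature and of cDC1 identity genes overlap, and B cell sums are highest in Tumor-CD40.

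Without Tumor-CD40 library 3 and Tumor-NoCD40 library 3 together, left out after seeing their B and T cell markers, 373 genes were called higher, 281 of them among the 351, and 21 type I interferon genes rose. The same fit called 65 genes lower, 24 of them among the 59, and had 334 alike and higher, 228 of them among the 253, and 64 alike and lower, 19 of them among the 45. Of 10 plasmacytoid dendritic cell markers Spib, Ly6d and Bst2 rose. The call of Bst2 was lost in 9 of 12 leave-outs and in limma-voom. The list's sum was 321 to 702 CPM in agonist libraries and 204 to 274 CPM in those without. Siglech, its defining marker, stayed at 0.357 to 5.62 CPM over all libraries. Spib, which B cells also express, averaged 248 ± 72.8 CPM in agonist libraries and 60.9 ± 32.2 CPM in those without, and did not overlap in either state (edgeR adjusted p = 0.00244). Of 6 neutrophil markers tested S100a8 and S100a9 rose, with sums of 2.2 to 37.7 CPM in agonist libraries and 0.943 to 4.78 CPM in those without. S100a8 stood at only 0.746 and 0.634 CPM in NoTumor-CD40 libraries 2 and 3 and at 1.2 CPM in Tumor-CD40 library 2. Limma-voom called 0 of these markers. Of 8 endothelial markers Kdr rose, at 18.8 ± 12 CPM in agonist libraries and 3.03 ± 0.986 CPM in those without. The sum of the endothelial list was 76.9 to 131 CPM in agonist libraries and 46 to 64.3 CPM in those without. Over all libraries Cdh5 stayed at 0 to 5.87 CPM, Tie1 at 0 to 2.26 CPM and Cldn5 at 0 to 1.27 CPM. Esam stood at 13.1 to 65.3 CPM and Pecam1 at 8.72 to 59.9 CPM. No T cell or NK cell marker passed (edgeR; 1 T cell marker lower and 4 NK cell markers higher at an unadjusted p under 0.05, and DESeq2 called 0 and 1). Of 9 monocyte markers Ly6c2 rose and Ccr2 fell, with sums of 169 to 634 CPM in agonist libraries and 202 to 810 CPM in those without.

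Several of the genes alike and higher lie near each other in the genome, in runs whose neighbours are under 500 kb apart. Over all genes tested, 1.4% were alike and higher. These runs were picked after their values were seen and are given with the number of genes tested in the same span. On chromosome 11, 48861968 to 49096974, the GTPase genes Irgm1, Tgtp1, Tgtp2 and Ifi47 and the predicted genes Gm5431 and Gm12185 were 6 of 11 genes tested, and Gm12250, Igtp and Irgm2 at 58187739 to 58222782 were 3 of 3. On chromosome 16 the antiviral genes Parp14, Dtx3l and Parp9 at 35832874 to 35972605 were 3 of 4, and Pla1a, Adprh and Cd80 at 38396117 to 38496335 were 3 of 4. On chromosome 7, Nectin2, Bcam and Bcl3 at 19716644 to 19822770 were 3 of 6 and Ifitm3, Pkp3, Irf7 and Sct at 141009586 to 141279133 were 4 of 15. On chromosome 15, Lynx1, Ly6i, Ly6a and Ly6c2 at 74747852 to 75111970 were 4 of 11. In the remaining runs, Plbd2, Oas3 and Oas1a were 3 of 15 and Trim34a, Trim12a and Trim30d 3 of 12. C130026I21Rik, A530032D15Rik, A530040E14Rik and Sp110 were 4 of 15, and a run of immunoglobulin kappa variable segments held 4 of 13. Genes of such families can share reads.

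Most of the genes alike and higher were outside the lists. Of the 253, 52 were in a function list, 10 in a marker list and 191 in none, and 229 encode proteins. Their median level without agonist was 5.77 TPM, against 3.56 TPM over all genes tested, and 28 of them stayed under 5 CPM in the agonist libraries.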

How the data were processed

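RNA of cDC1 from inguinal lymph nodes was extracted with a Qiagen micro kit and made into directional NEBNext libraries, per the labels' protocols. Transcripts were quantified with Salmon on mm10, per the submitters' processing notes, whereas the deposited tables are named for Sailfish, so which program made the values is not settled; the version and annotation are not given in the sources used here. The authors deposited expected counts (estimated reads, not normalized) and TPM (scaled by transcript length to a common total) for 136288 transcripts in 12 libraries. With GENCODE M21 on GRCm38, 136176 transcripts were summed to 53458 genes and expected counts then rounded; the other 112 transcripts held 0.0279% to 0.0457% of the counts and were left out. Splitting of reads between similar transcripts by the authors' program makes the division among gene copies uncertain.

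In R 4.3.3 with edgeR 4.0.16, TMM factors (0.936 to 1.07) and filterByExpr (minimum count 10, minimum total 15) left 18095 genes. The common biological coefficient of variation was 60%, which, more than depth, limits the precision. The additive model held tumor and agonist (9 residual degrees of freedom, glmQLFit with legacy = FALSE); quasi-likelihood F tests were two-sided, with Benjamini-Hochberg adjustment over all genes and a threshold of 0.05. Effects within a tumor state and their difference came from a model of the 4 groups. The SE was taken from the F statistic (size of the log2 fold change divided by the root of F). Lists (22 of functions, 14 of markers) are described by counts and medians, without a set test. Genes named are a panel of 18, up to 12 alike per direction with at least 5 CPM by the smaller within-state change, up to 4 called per list by p, up to 6 least alike, and up to 8 most alike in size; others were chosen after their values were seen. A gene that the rule picks is not reported here, though counts include it. The members and lists were chosen with earlier results of these data known. Of these fits only the additive edgeR model was run on simulated counts, which held no tumor effect. No result here rests on that run. Alternatives were legacy = TRUE, robust = TRUE, DESeq2 1.42.0, limma 3.58.1 (voom, and trend on log2(TPM + 1) and log2(TPM + 0.1)), other normalizations, filters and covariates, and leaving out each library. Figures were drawn with matplotlib 3.10.9. Red cell, stromal and sex-linked lists gave 0 calls (0 at an unadjusted p under 0.05, and 0 by DESeq2 and limma-voom), as did cDC2 and macrophage markers in edgeR (4 higher unadjusted in each, and 1 macrophage marker lower).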

Additional observations from a re-analysis of the deposited data

How the results depend on the processing

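The counts were 351 genes higher, 59 lower, 253 alike and higher, 45 alike and lower and 0 for the difference between states. Counts of lower genes moved most: 25 lower and 20 alike and lower with legacy = TRUE, and 24 and 22 with limma-voom. DESeq2 gave 615 higher, 185 lower, 81 alike and lower and 17 for the difference. Limma-trend on log2(TPM + 1) gave 95 higher, 4 lower, 93 alike and higher, 3 alike and lower and 2 for the difference. On log2(TPM + 0.1) it gave 110, 5, 107, 4 and 0. Only 1 of these 4 and 1 of these 5 lower genes were among the 59. Of the 3 and the 4 alike and lower, 0 were among the 45. Adjusted p under 0.05 in both states as the rule for alike left 34 higher and 0 lower. With the log2 ratio of mature to cDC1 identity genes as covariate, chosen after seeing the data, 614 were higher and 281 lower. The values of Clec9a (0.20) and Irf8 (0.11) changed sign in that fit. Both genes are members of the identity list in the ratio. Their change of sign is therefore partly set by the covariate and is no separate result. Leaving out 1 library gave 194 to 492 higher, 11 to 200 lower, 160 to 375 alike and higher, 10 to 160 alike and lower and 0 to 0 for the difference; these fits test more genes, since the filter follows the smallest group. The titles carry a date-like prefix. Library 1 of every group has the same prefix, and so does library 2 of every group. Library 3 has a shared prefix in every group but NoTumor-NoCD40, whose library 3 has a prefix found in no other title. Libraries of 1 prefix deviated together at r = 0.00358 to 0.228 (15 pairs, median 0.0629), against -0.19 to 0.0877 for libraries of different prefix (39 pairs, median -0.0292), and 10 of 11 libraries with a partner in another group correlated best with one of their own prefix, a hint from the data and not the design. Since not every pair reached 0.1, the prefix was not taken to pair them. With the prefix as a replicate block 342 genes were higher, 98 lower and 0 differed between states, with 231 and 33 alike. Of these, 284 were among the 351, 36 among the 59, 217 among the 253 and 28 among the 45. In that fit 1 library has a prefix of its own and is fitted exactly. Under the block Lmo1, Tnfsf4, Rxra, Antxr2 and Rest missed the threshold, and 8 cholesterol genes were lower in place of 2. The cause of these shifts was not tested. The other normalizations, filters and covariates, robust = TRUE, and leaving out immunoglobulin, B and plasma cell genes kept every count within 1.5 times. Of 85 genes picked by rule and past the threshold, 29 were past it under each of the 28 other fits.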
